A study of Mus musculus with 9 samples.

Results

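The response of the substantia nigra to 1 fast of 24 hours was measured by comparing 3 libraries from fasted mice with 3 libraries from mice fed ad libitum, which are 6 of the 9 libraries in the series. The 6 libraries were picked by their treatment label, and all genes in the count table were used. The comparison itself was chosen with earlier results of these data known. The mice were wild type C57BL/6 animals that had all received sham surgery, the controls included. Per the labels' protocols they were 12 weeks old when allocated, and the fast began 2 hours before lights off. The protocols add that ad libitum mice were moved between cages on the same timetable for 1 week. No such week is listed for the mice fasted once, and the part of that difference in the comparison was not tested. The remaining 3 libraries come from mice kept for 1 week on intermittent fasting, with 3 fasts of 24 hours. No label ties a library to an animal of its own, so p-values reflect only how far these libraries scatter, and some of that scatter may be technical. How long after the fast the tissue was taken is not stated in the labels.

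The substantia nigra is a midbrain region that holds dopamine neurons together with GABA neurons, myelinating oligodendrocytes, astrocytes, microglia and blood vessels. Fasting is known to lower insulin and to raise corticosterone, the main glucocorticoid of rodents. Corticosterone crosses into the brain and binds the glucocorticoid receptor, which then attaches to DNA at short palindromes and switches target genes on or off. Lower insulin frees FoxO transcription factors from inhibition by the kinase Akt, and the body turns from glucose to fatty acids and ketones.

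Totals per library were 38516394 to 45693865 counts in the ad libitum group and 37732284 to 46522059 counts in the fasted group. Th, the tyrosine hydroxylase gene of dopamine neurons, was present in all 6 libraries at 76.1 to 207 CPM (counts scaled to library size, with TMM factors between libraries), and the dopamine transporter gene Slc6a3 at 184 to 448 CPM. Fasted replicate 2 stood apart, with an estimated quality weight of 0.213 where the other 5 libraries lay between 1.08 and 1.93. Its deviations from its group mean correlated with those of 1 week replicate 2 (weight 0.507) at r = 0.459 over 14551 genes, and these are the libraries that stood apart. Ad libitum replicate 3 held 335 CPM of Ttr, the main transcript of choroid plexus, against 2.61 to 15.1 CPM in the other 5. Slc17a7, a glutamate transporter gene of cortical neurons, was at 33.2 to 49.2 CPM in controls and 4.31 to 9.50 CPM after 1 day (edgeR adjusted p = 0.544). The 15 markers of cortical and thalamic glutamate neurons, Slc17a7 included, summed to 950 to 1218 CPM and then 1052 to 1156 CPM. Their sums thus overlapped between the groups. In bulk tissue, fewer cells of a type and less RNA per cell cannot be told apart.

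A single day of fasting raised 11 genes and lowered 1 among 20535 genes tested (0.0584%). The genes that rose encode a hormone-responsive kinase (Sgk1), small GTPase regulators (Arl4d, Net1), a lipid droplet protein (Plin4), an mTORC1 inhibitor (Ddit4), an alpha-arrestin (Arrdc2), a GABA receptor subunit (Gabrr2), an endothelial gene (Apold1), an endosomal protein (Plekhf1), an F-box protein (Fbxw23) and an unnamed model (Gm19439). The gene that fell was the chemokine Cxcl12. The test was edgeR's quasi-likelihood F test, two-sided, with Benjamini-Hochberg adjustment over all genes and a threshold of 0.05, so 0.0536% of genes were called higher and 0.00487% lower.

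**Figure D1:**
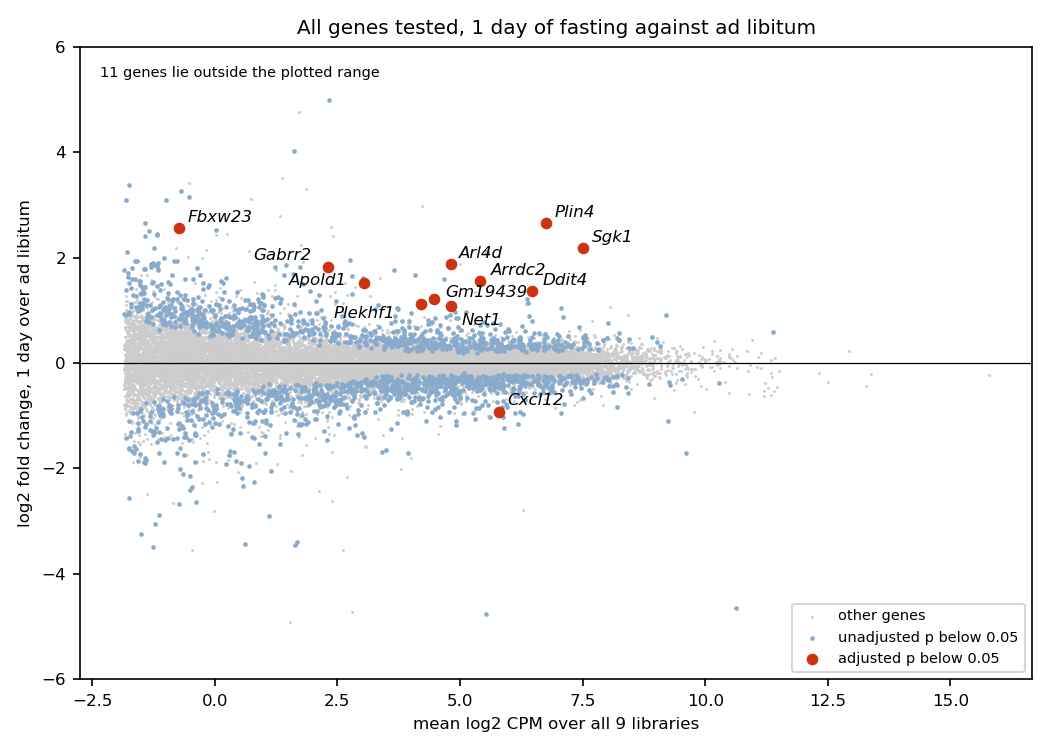
Log2 fold change (1 day over ad libitum, vertical axis) against mean log2 CPM over 9 libraries (horizontal axis), 1 point per gene tested; red points passed the adjusted threshold of 0.05 and blue points only the unadjusted one. The 11 genes that rose sit above 1 on the log2 scale and Cxcl12 sits at -0.92; 11 genes lie outside the plotted range.

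The promoters of the genes past the test are shown first because 1 of them carries a glucocorticoid receptor palindrome. RefSeq promoter windows (build GRCm38.p6, 250 bases before to 50 after a start site) were found for 11 of the 12 genes, in 17 windows. The full palindrome, AGAACA and TGTTCT with any 3 bases between them, searched on both strands, occurs in 3 of 32851 windows in the table (0.00913%) and in 1 of 16778 windows of genes tested here (0.00596%). That 1 window belongs to Sgk1, which has 6 windows. The palindrome starts 189 bases before the start site and is in capitals, in the 250 upstream bases at chr10:21993640-21993889 on the + strand:
Sgk1: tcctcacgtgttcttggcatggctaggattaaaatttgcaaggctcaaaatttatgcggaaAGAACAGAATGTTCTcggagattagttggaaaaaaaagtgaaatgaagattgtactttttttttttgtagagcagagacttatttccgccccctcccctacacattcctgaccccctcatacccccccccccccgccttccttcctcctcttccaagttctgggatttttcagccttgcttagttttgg

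A single arm of the palindrome, AGAACA on either strand, is far commoner and was found in 5 of the 17 windows (29.4%) against 13.6% of windows of genes tested. Of these 5 windows 3 belong to Sgk1, which supplies 6 of the 17. Such an arm in Gabrr2 starts 167 bases before the start site, and a D-box, the TTATGNAA motif of clock output factors found in 2.26% of windows of genes tested, starts 191 bases before it. The cyclic AMP response element TGACGTCA was found in 2.70% of windows of genes tested and in the Arl4d window, 26 bases before the start site. The E-box CACGTG, the site of CLOCK and BMAL1, was found in 9.05% of windows of genes tested and in 2 of the 17 windows (11.8%). In Net1 it starts 21 bases before the start site of 1 of 2 windows. In Sgk1 it starts 246 bases before the start site of the window printed above, where it is left in lower case. A motif match describes the letters only. Capitals mark these motifs in the 250 upstream bases, all from GRCm38.p6, at chr4:33062862-33063111 (+ strand) for Gabrr2, chr11:101665291-101665540 (+ strand) for Arl4d and chr13:3893582-3893831 (- strand) for Net1:
Gabrr2: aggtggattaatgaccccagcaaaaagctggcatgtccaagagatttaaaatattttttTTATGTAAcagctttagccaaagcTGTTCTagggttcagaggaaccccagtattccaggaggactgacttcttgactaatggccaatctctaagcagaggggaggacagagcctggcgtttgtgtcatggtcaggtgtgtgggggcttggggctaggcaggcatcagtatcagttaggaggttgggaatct
Arl4d: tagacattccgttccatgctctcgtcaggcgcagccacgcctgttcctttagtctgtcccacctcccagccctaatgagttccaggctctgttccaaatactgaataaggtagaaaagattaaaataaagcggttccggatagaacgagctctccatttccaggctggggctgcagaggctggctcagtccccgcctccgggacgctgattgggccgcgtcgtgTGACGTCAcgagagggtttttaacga
Net1: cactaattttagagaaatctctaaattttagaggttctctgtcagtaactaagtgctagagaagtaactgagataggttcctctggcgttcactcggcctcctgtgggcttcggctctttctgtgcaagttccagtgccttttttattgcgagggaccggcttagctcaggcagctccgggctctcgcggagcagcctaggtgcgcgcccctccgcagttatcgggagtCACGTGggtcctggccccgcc

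Sgk1 (ENSMUSG00000019970), a kinase that regulates ion channels and transporters, was at 51.9, 40.6 and 49.9 CPM in the ad libitum libraries and at 256, 153 and 239 CPM after 1 day. Every fasted library was above every control, and replicate 2 was the lowest of the fasted 3. The log2 fold change was 2.19 (95% interval 1.76 to 2.61, edgeR adjusted p = 0.00468). Plin4 (ENSMUSG00000002831), a perilipin that coats lipid droplets, was at 13.5, 23.0 and 15.2 CPM in controls and 132, 66.4 and 128 CPM in fasted libraries. Here too replicate 2 was the lowest fasted library, and it was still above all 3 controls. The log2 fold change was 2.66 (95% interval 1.93 to 3.40, edgeR adjusted p = 0.0310).

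Arl4d (ENSMUSG00000034936), a small GTPase of the ARF family, was at 10.1, 9.78 and 8.19 CPM in controls and 40.0, 35.9 and 27.1 CPM after 1 day (edgeR adjusted p = 0.00468). Net1 (ENSMUSG00000021215), an exchange factor that activates RhoA, was at 14.3, 13.1 and 15.3 CPM in controls and 32.6, 31.1 and 27.0 CPM after 1 day (edgeR adjusted p = 0.0160). In both genes the groups were well separated, and replicate 3 was the lowest fasted library.

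Ddit4 (ENSMUSG00000020108), also called REDD1, inhibits the growth kinase complex mTORC1. It was at 37.4, 42.3 and 34.7 CPM in controls and 117, 96.9 and 79.7 CPM after 1 day (log2 fold change 1.36, 95% interval 0.94 to 1.78, edgeR adjusted p = 0.0478). Ddit4 was the 1 member that passed among 30 genes of mTORC1 and its inhibitors, whose median was -0.04. Arrdc2 (ENSMUSG00000002910), an adaptor that helps remove membrane proteins, was at 15.4, 15.7 and 16.7 CPM in controls and 56.7, 34.0 and 49.7 CPM after 1 day (edgeR adjusted p = 0.0201). Of 5 alpha-arrestins Arrdc2 alone passed, while Txnip, an inhibitor of thioredoxin and glucose uptake, was at 0.35 on the log2 scale (edgeR adjusted p = 0.503).

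Gabrr2 (ENSMUSG00000023267), the rho2 subunit of ionotropic GABA receptors, was at 1.36, 1.504 and 1.69 CPM in controls and 6.15, 4.13 and 5.93 CPM after 1 day (edgeR adjusted p = 0.0160). It was the 1 gene past the test among 21 GABA neuron and GABA-A receptor genes, whose median was -0.01. Gabrr1, which encodes the rho1 subunit, was at 0.121 to 0.282 CPM in controls and 0.346 to 0.519 CPM after 1 day (log2 fold change 1.11, edgeR adjusted p = 0.486). Plekhf1 (ENSMUSG00000074170), a phosphoinositide-binding protein of endosomes and lysosomes, was at 8.50, 9.75 and 10.4 CPM in controls and 22.4, 20.9 and 19.2 CPM after 1 day (edgeR adjusted p = 0.0160). The gene model Gm19439 (ENSMUSG00000105843) was at 9.93, 10.4 and 11.3 CPM in controls and 28.3, 23.3 and 22.0 CPM after 1 day (edgeR adjusted p = 0.0160). For both the fasted libraries were all above the controls.

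Fbxw23 (ENSMUSG00000104572) rests on few reads. It had 5, 5 and 5 counts in the ad libitum libraries and 38, 26 and 33 counts after 1 day (log2 fold change 2.56, edgeR adjusted p = 0.0201). It belongs to a mouse multigene family with close copies, between which the reads may have been split, so its counts are uncertain. It did not reach 1 CPM in any library.

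Apold1 and Cxcl12 were the genes past the test among 26 markers of brain endothelium, and they moved in opposite directions. Apold1 (ENSMUSG00000090698), an early response gene of vessel-lining cells, was at 5.13, 3.88 and 4.20 CPM in controls and 11.9, 11.3 and 14.8 CPM after 1 day (log2 fold change 1.52, 95% interval 1.15 to 1.89, edgeR adjusted p = 0.0160). Cxcl12 (ENSMUSG00000061353), a chemokine that vessel and meningeal cells secrete and that guides cells bearing Cxcr4, was at 73.9, 84.7 and 72.0 CPM in controls and 41.5, 42.4 and 37.7 CPM after 1 day. Its groups did not overlap, and the control level was 1.90 times the fasted one (log2 fold change -0.92, 95% interval -1.16 to -0.68, edgeR adjusted p = 0.0160). The summed level of the 26 endothelial markers overlapped between the groups, at 1057 to 1226 CPM in controls and 1008 to 1135 CPM after 1 day. No marker was at 0. At an unadjusted p below 0.05, 6 of the 26 were higher and 8 lower by edgeR, where 4.37% and 4.90% of all genes were. Their median log2 fold change was -0.25, and DESeq2 and voom each called 2 higher and 2 lower. Over all genes DESeq2 called 86 higher and 101 lower of 20144, and voom 45 and 48 of 20535. Meningeal and fibroblast markers, 15 in number, had a median log2 fold change of -0.94, and it lay between -1.23 and -0.63 when single libraries were left out. They summed to 615 to 1382 CPM in controls and to 688 to 1061 CPM after 1 day, with 0 past edgeR's, DESeq2's or voom's test. By edgeR 1 was lower at an unadjusted p below 0.05, against 4.90% of all genes. The part of these cell types in the change of Cxcl12 was not tested.

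**Figure D2:**
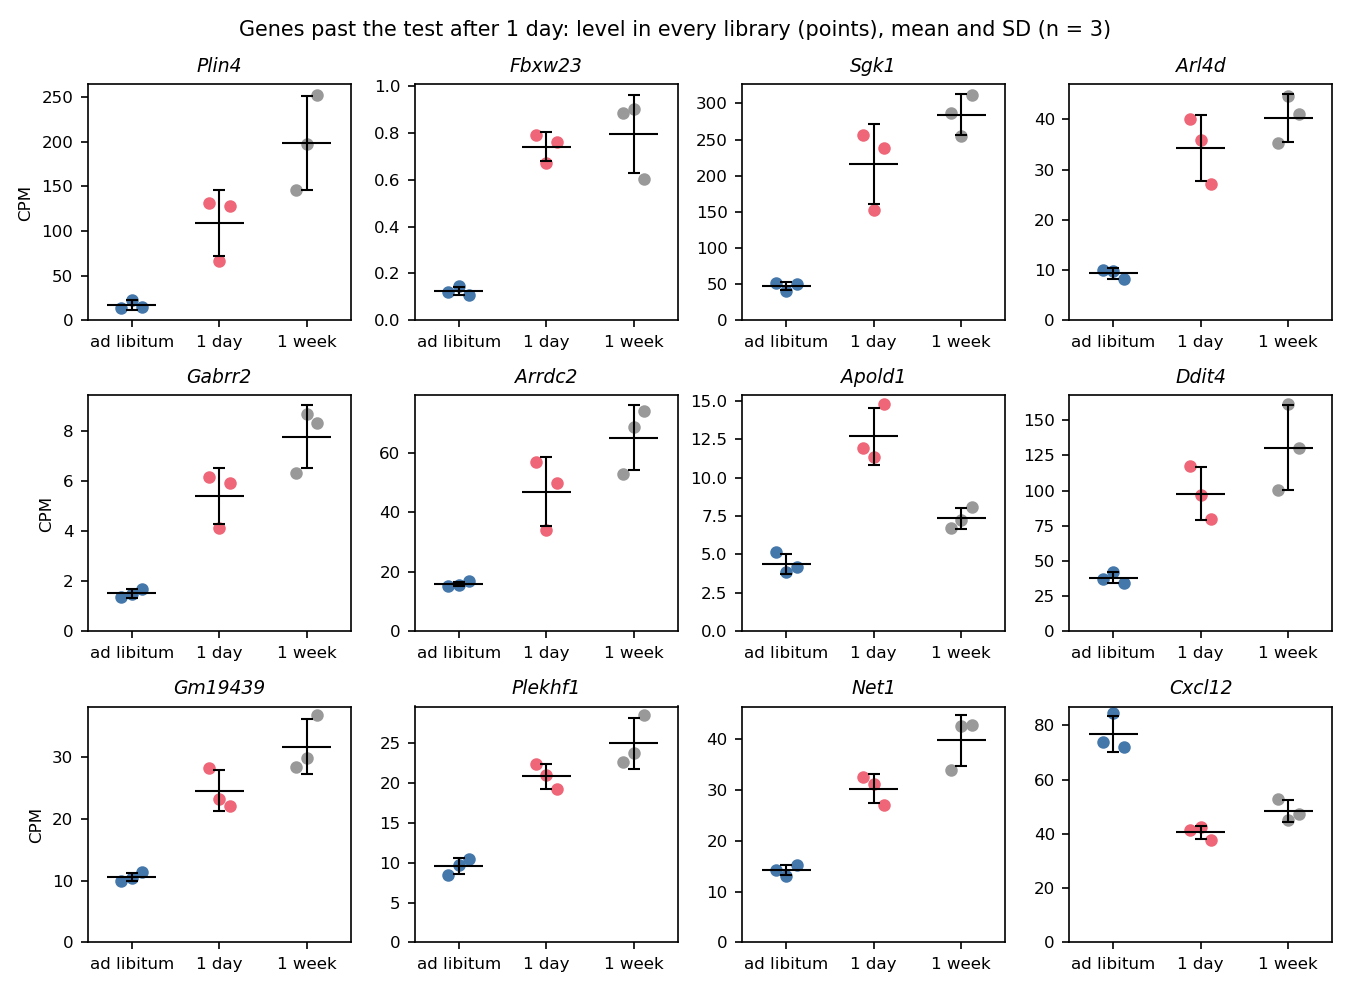
CPM of the 12 genes past the test (vertical axes start at 0) in each library of the ad libitum, 1 day and 1 week groups; points are libraries, horizontal bars the mean and error bars the SD of 3 libraries. In each panel the 3 points of the 1 day group lie beyond all 3 ad libitum points, as do the 3 points of the 1 week group.

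The calls depended on single libraries. All 12 ended when any 1 of the 3 ad libitum libraries was left out, with adjusted p up to 0.0792 for Sgk1 and Arl4d and up to 0.326 for Ddit4, and only Sgk1 and Arl4d passed without fasted replicate 1 or without fasted replicate 3. Without fasted replicate 2, the library that stood apart, 16 genes were higher and 6 lower, and 11 of the 12 still passed, the exception being Ddit4; Plin4 was also lost without 1 week replicate 2, and Ddit4 without 1 week replicate 3.

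The 1 week group allowed the genes past the test to be compared between a single fast and repeated fasts. These genes were picked by their 1 day libraries, which are also 1 side of this comparison, so it is not an independent test. Of the 20535 genes, 0% passed edgeR's adjusted threshold between 1 week and 1 day, and 1071 (5.22%) had an unadjusted p below 0.05. Of the 12 genes 0 passed, and limma's voom, and edgeR with the pair that stood apart left out, gave 0 as well, while DESeq2 called Apold1 alone among them (adjusted p = 0.0401) and 3 genes in all. Apold1 was at 6.69, 7.25 and 8.09 CPM after 1 week, between the other groups. Its difference, 1 week minus 1 day, was -0.79 on the log2 scale (95% interval -1.15 to -0.43, edgeR unadjusted p = 6.57e-04, adjusted p = 0.853). Cxcl12 was at 53.1, 45.2 and 47.2 CPM after 1 week, above each 1 day library and below each control, with a difference of 0.26 (0.02 to 0.50, edgeR adjusted p = 0.853).

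For the other 10 genes the estimate at 1 week was the larger one. Plin4 was at 146, 198 and 252 CPM after 1 week, a difference of 0.87 from 1 day (95% interval 0.18 to 1.56, edgeR adjusted p = 0.853). Sgk1 was at 287, 255 and 311 CPM, a difference of 0.40 (-0.01 to 0.81), and 1 week replicate 2 was below the highest 1 day library. Arl4d differed by 0.23 (-0.12 to 0.58), so a difference of up to 0.58 on the log2 scale lies within the interval. Against ad libitum, which both comparisons share as their control, the log2 fold changes at 1 day and 1 week were 2.19 and 2.58 for Sgk1, 2.66 and 3.53 for Plin4, 1.88 and 2.11 for Arl4d and 1.52 and 0.74 for Apold1.

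**Figure D3:**
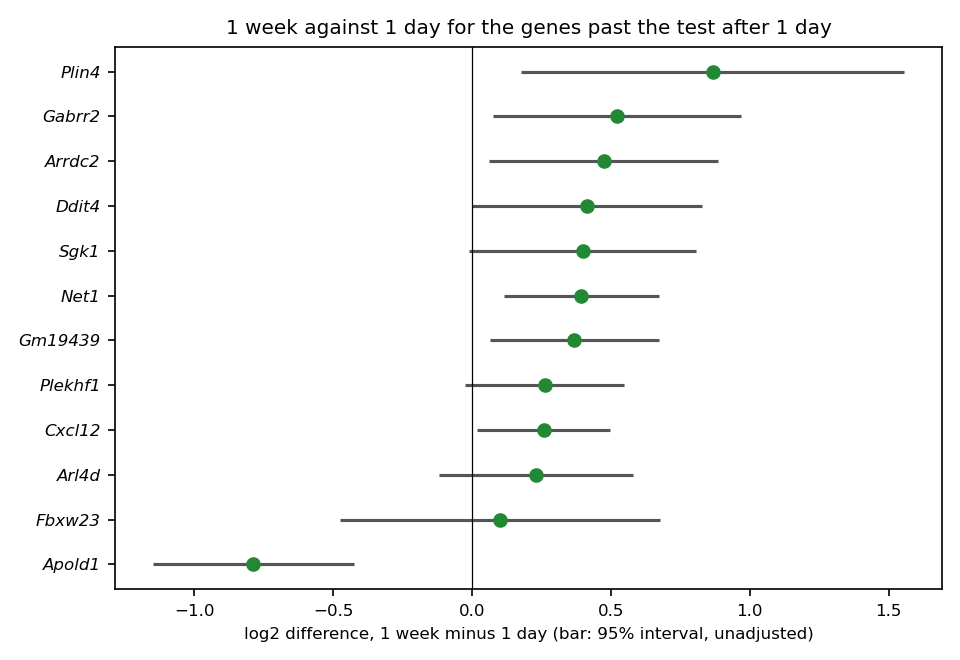
Difference between 1 week and 1 day (horizontal axis, log2 scale) for the 12 genes past the test after 1 day; points are edgeR estimates and bars are unadjusted 95% intervals. The point for Apold1 lies at -0.79 and the other 11 points lie above 0, with Plin4 highest at 0.87; no difference passed the adjusted threshold.

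Genes known to be induced by glucocorticoids were mostly higher after the fast. The list, like the others used here, was chosen with earlier results of these data known, so its counts are description, not a test. Of 34 members measured, 5 rose by edgeR (Sgk1, Arl4d, Arrdc2, Plin4 and Ddit4), 0 fell and 29 did not pass. DESeq2 called 19 higher, voom 15 and edgeR with the replicate block 2, and edgeR called 0 without any 1 of the 3 ad libitum libraries. Over all genes, the background for this and each later list, DESeq2 called 86 higher and 101 lower of 20144. Voom called 45 higher and 48 lower of 20535, and edgeR with the block 2 higher. At an unadjusted p below 0.05, 25 members were higher and 0 lower, where 4.37% of all genes were higher and 4.90% lower. In 22 members the fasted libraries all lay above the controls and in 0 all below, where 8.17% of all genes were higher and 10.3% lower by that count. Across the list the median log2 fold change was 0.71 against 4e-04 over all genes, and it stayed between 0.61 and 0.78 when single libraries were left out. The list's median difference from controls was 0.89, 0.62 and 0.68 on the log2 scale in fasted replicates 1, 2 and 3. Its mean difference was 1.11, 0.37 and 0.88, so replicate 2, the library that stood apart, was lowest by either measure.

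Several more members had higher estimates but did not pass, some of them far from the threshold. Sult1a1, a sulfotransferase, was at 4.07 to 6.91 CPM in controls and 16.1 to 20.2 CPM after 1 day (log2 fold change 1.67, edgeR adjusted p = 0.0609). Rhou, an atypical small GTPase, was at 53.2 to 65.4 CPM and then 91.8 to 113 CPM (0.79, adjusted p = 0.0879). Pdk4, the kinase that holds back glucose oxidation by inhibiting pyruvate dehydrogenase, was at 9.01 to 10.2 CPM and then 17.6 to 24.6 CPM (1.08, adjusted p = 0.104). For these 3 genes the groups did not overlap. Cdkn1a, the cell cycle inhibitor p21, was at 8.62, 11.2 and 9.51 CPM in controls and at 58.4, 22.9 and 44.5 CPM after 1 day (2.10, edgeR adjusted p = 0.165), so its fasted libraries spread widely. Zbtb16, a zinc finger repressor, was at 80.3, 66.5 and 40.9 CPM after 1 day against 23.2 to 31.9 CPM in controls (1.14, adjusted p = 0.433).

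Tsc22d3, known as the glucocorticoid-induced leucine zipper, was at 91.1 to 99.2 CPM in controls and 120 to 145 CPM after 1 day (0.52, edgeR adjusted p = 0.325). Fkbp5, which dampens the receptor in a feedback loop, was at 20.5 to 23.1 CPM and then 33.8 to 40.0 CPM (0.72, adjusted p = 0.532). The receptor genes gave estimates near 0: Nr3c1, the glucocorticoid receptor, differed by -0.02 on the log2 scale (SE 0.12, edgeR adjusted p = 0.958) and Nr3c2, the mineralocorticoid receptor, by -0.19 (SE 0.22, adjusted p = 0.752).

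Few genes of fuel use passed a test at the adjusted threshold. Over all genes 4.37% were higher and 4.90% lower at an unadjusted p below 0.05, the shares to set beside the counts here. Of 28 genes of ketone use and fatty acid oxidation 0 passed edgeR's test (median -0.003), with 1 higher, Pdk4, and 2 lower at an unadjusted p below 0.05; DESeq2 and voom each called 1 higher. Cpt1a, which brings fatty acids into mitochondria, differed by -0.01 on the log2 scale (SE 0.09, edgeR adjusted p = 0.990). Of 26 genes of insulin and FoxO signalling 0 passed edgeR's test and 1 each passed by DESeq2 and voom, with 5 higher and 2 lower at an unadjusted p below 0.05, and the median was 0.06. The smallest p among them was that of Klf15, a fasting-response factor, at 23.0, 28.2 and 27.0 CPM in controls and 50.0, 40.1 and 39.8 CPM after 1 day (0.73, adjusted p = 0.129). Of 17 genes of fatty acid synthesis 0 passed by edgeR, 0 by voom and 1, lower, by DESeq2; 3 were lower at an unadjusted p below 0.05 and the median was -0.20.

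Plin4 stood alone among lipid droplet genes. Of 19 members Plin4 alone passed, and the median was -0.13. Pnpla2, the triglyceride lipase ATGL, was at 32.0, 34.9 and 30.4 CPM in controls and 62.7, 48.5 and 51.3 CPM after 1 day (log2 fold change 0.74, edgeR adjusted p = 0.384). Ldah, a lipid droplet hydrolase, was at 28.2 to 33.6 CPM and then 21.7 to 23.9 CPM (-0.48, adjusted p = 0.416). Among 29 genes of glucose transport, glycolysis and glycogen 0 passed edgeR's test, and DESeq2 and voom each called 1. At an unadjusted p below 0.05, 2 were higher and 1 lower by edgeR (4.37% and 4.90% of all genes). Slc2a1, the glucose transporter of the blood-brain barrier, was at 117 to 138 CPM in controls and 149 to 211 CPM after 1 day (0.49, adjusted p = 0.417).

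**Figure D4:**
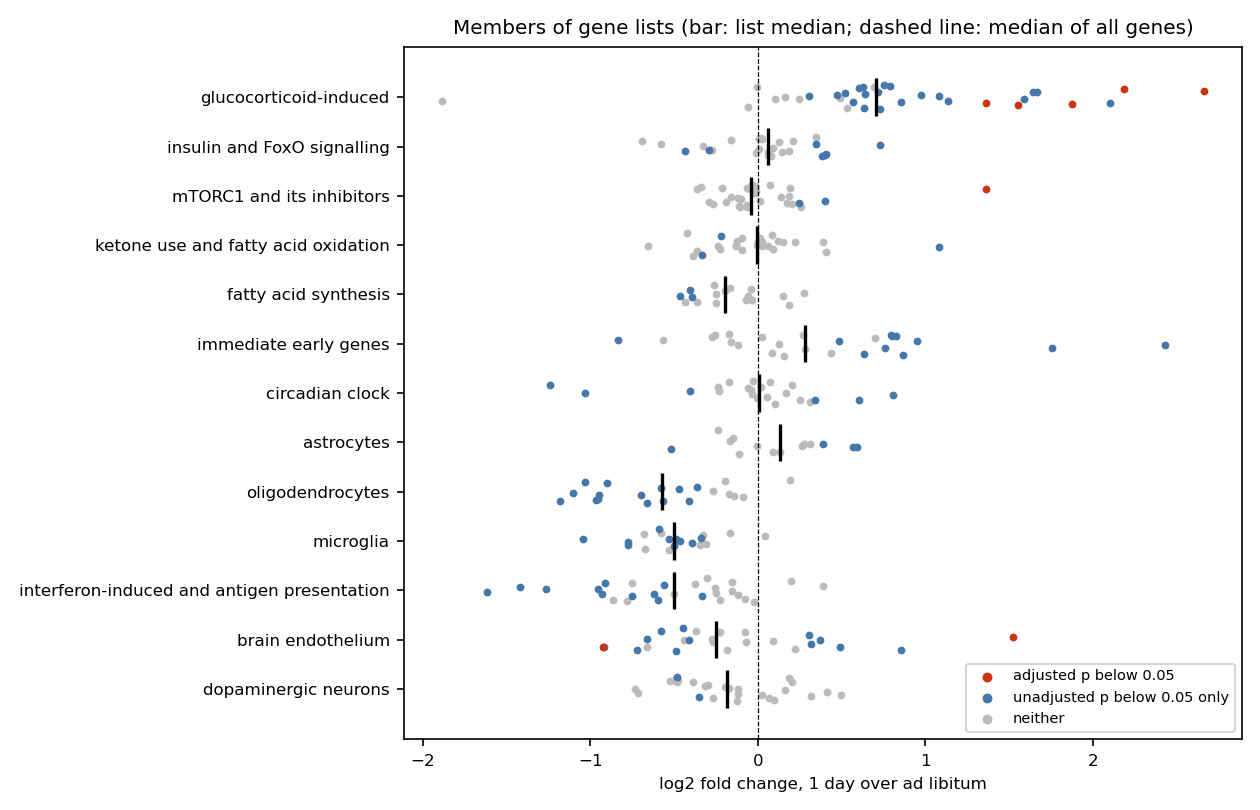
Log2 fold change (1 day over ad libitum, horizontal axis) of the members of 13 gene lists, 1 point per gene; red points passed the adjusted threshold, blue points only the unadjusted one, and black bars are list medians. The glucocorticoid list has a median of 0.71, and the oligodendrocyte, microglia and interferon lists have medians of -0.57, -0.50 and -0.50.

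The molecular clock runs on a loop in which CLOCK and BMAL1 activate Per and Cry genes, whose proteins shut them off again. Of 22 clock genes 0 passed edgeR's test, 3 were higher and 3 lower at an unadjusted p below 0.05 (4.37% and 4.90% of all genes), and the median was 0.01. DESeq2 called 1 higher and 2 lower, and voom 2 higher and 1 lower. Cry1, a repressor of the loop, was at 14.9, 16.3 and 14.1 CPM in controls and 25.3, 27.1 and 27.1 CPM after 1 day (log2 fold change 0.81, edgeR adjusted p = 0.0766). All 3 fasted libraries were above the controls and close to one another. Nr1d1, the repressor REV-ERB alpha, was at 86.3, 85.0 and 81.2 CPM in controls and 38.8, 18.5 and 49.6 CPM after 1 day (-1.24, adjusted p = 0.325). Dbp, a clock output factor, was at 66.6, 68.0 and 68.3 CPM and then 35.6, 17.6 and 46.2 CPM (-1.03, adjusted p = 0.417). For both the groups did not overlap and replicate 2 was the lowest. Per1 was at 97.7, 52.3 and 98.6 CPM after 1 day against 49.4 to 58.4 CPM in controls, so replicate 2 lay within the control range (0.60, adjusted p = 0.475). After 1 week Cry1 was at 19.2, 22.0 and 15.9 CPM, a difference of -0.48 from 1 day. The part of sampling time in the clock values was not tested.

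Cry1 has 1 promoter window, shown because it holds both an E-box, 60 bases before the start site, and the FoxO motif GTAAACA, 95 bases before it. The FoxO motif was found in 2.77% of windows of genes tested and in 0 of the 17 windows of the genes past the test. The 250 upstream bases lie at chr10:85185055-85185304 (- strand, GRCm38.p6), with both motifs in capitals:
Cry1: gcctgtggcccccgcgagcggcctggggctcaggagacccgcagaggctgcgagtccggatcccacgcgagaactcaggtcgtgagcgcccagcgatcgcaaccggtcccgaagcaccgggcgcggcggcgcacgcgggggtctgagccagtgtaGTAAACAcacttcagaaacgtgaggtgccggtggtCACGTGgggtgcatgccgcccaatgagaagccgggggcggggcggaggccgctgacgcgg

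Immediate early genes, which neurons switch on within minutes of activity, split between libraries. Of 25 members 0 passed edgeR's test, 10 were higher and 1 lower at an unadjusted p below 0.05 (4.37% and 4.90% of all genes), and the median was 0.28. DESeq2 called 2 higher and voom 1. Fos was at 6.78, 5.47 and 4.96 CPM in controls and 21.4, 13.3 and 23.5 CPM after 1 day (log2 fold change 1.76, edgeR adjusted p = 0.356). Btg2, an antiproliferative early gene, was at 9.60 to 12.1 CPM and then 18.7 to 25.7 CPM (0.95, adjusted p = 0.0860). Arc, a synaptic early gene, had the opposite sign, at 30.3 to 34.8 CPM in controls and 17.3 to 18.9 CPM after 1 day (-0.83, adjusted p = 0.484). The list's mean difference from controls was 0.59, -0.10 and 0.59 in fasted replicates 1, 2 and 3, so the library that stood apart did not share it. The number of members higher at an unadjusted p below 0.05 was 3 to 11 when single libraries were left out.

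Most oligodendrocyte genes had lower levels after the fast, and how many passed depended on the tool. Of 20 markers 0 passed edgeR's test, while DESeq2 called 8 lower and voom 5. Over all genes DESeq2 called 101 of 20144 lower and voom 48 of 20535. With edgeR, 2 passed when the 1 week group was left out and 3 when the pair that stood apart was. At an unadjusted p below 0.05, 14 were lower and 0 higher by edgeR, where 4.90% and 4.37% of all genes were. In 14 all fasted libraries lay below all controls, as they did for 10.3% of all genes. The median was -0.57, and it stayed between -0.67 and -0.51 when single libraries were left out. Trf, the transferrin gene that these cells transcribe strongly, was at 961, 845 and 1031 CPM in controls and 459, 453 and 410 CPM after 1 day (log2 fold change -1.10, edgeR adjusted p = 0.0634). Its groups were well separated. Ugt8a, which makes the myelin lipid galactocerebroside, was at 116, 105 and 142 CPM and then 52.3, 81.3 and 52.3 CPM (-0.97, adjusted p = 0.176). Mbp, the structural myelin basic protein gene, was at 4804, 5215 and 6249 CPM and then 5430, 4400 and 4386 CPM, so its groups overlapped (-0.19, SE 0.15, adjusted p = 0.645). The summed level of the 20 markers was 13280 to 16092 CPM in controls and 10925 to 12763 CPM after 1 day, and none was at 0 counts. The part of oligodendrocyte content in these values was not tested.

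Microglia markers and interferon-induced genes also had negative medians. Of 19 microglia markers 0 passed edgeR's test and 10 were lower at an unadjusted p below 0.05, against 4.90% of all genes (median -0.50); that count was 4 to 13 when single libraries were left out. DESeq2 and voom each called 1 lower. Fcrls, a microglial surface receptor, was at 11.1, 10.7 and 10.8 CPM in controls and 5.57, 5.47 and 4.75 CPM after 1 day (log2 fold change -1.04, edgeR adjusted p = 0.140). Tyrobp, the signalling adaptor of Trem2, was at 5.67 to 6.74 CPM and then 3.07 to 4.92 CPM (-0.78, adjusted p = 0.434). Of 27 interferon-induced and antigen presentation genes 0 passed by edgeR, 0 by voom and 2, both lower, by DESeq2, and 11 were lower at an unadjusted p below 0.05, against 4.90% of all genes (median -0.50). Isg15, a ubiquitin-like protein, was at 0.848, 1.24 and 0.867 CPM in controls and 0.416, 0.207 and 0.323 CPM after 1 day (-1.62, adjusted p = 0.165), which is near the lowest levels measured. The summed level of the 19 microglia markers was 471 to 525 CPM in controls and 346 to 399 CPM after 1 day, and its part in the interferon values was not tested. With the filter that asks for 1 CPM in 6 or more libraries the interferon median was -0.27, over 20 genes.

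Astrocyte and dopamine neuron genes were mixed. Of 15 astrocyte markers 0 passed by edgeR, 0 by voom and 1, higher, by DESeq2, and the median was 0.13. At an unadjusted p below 0.05, 3 were higher and 1 lower by edgeR (4.37% and 4.90% of all genes). Glul, the glutamine synthetase gene, was at 1862 to 2193 CPM in controls and 2516 to 3822 CPM after 1 day (log2 fold change 0.59, edgeR adjusted p = 0.404), and Aqp4, the water channel of astrocyte endfeet, was at 212 to 296 CPM and then 140 to 210 CPM (-0.52, adjusted p = 0.530). Of 26 dopamine neuron genes 0 passed by edgeR, DESeq2 or voom, and the 2 that were lower at an unadjusted p below 0.05 are a share near the 4.90% of all genes (median -0.18). Th was at 160, 177 and 207 CPM in controls and 162, 88.6 and 76.1 CPM after 1 day (-0.73, adjusted p = 0.546). The groups overlapped for Th but not for Slc6a3, which was at 350 to 448 CPM and then 184 to 335 CPM (-0.49, edgeR adjusted p = 0.570). The summed dopamine neuron level was lowest in fasted replicate 3, at 66% of the control mean, against 94.2% and 105.7% in replicates 1 and 2.

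**Figure D5:**
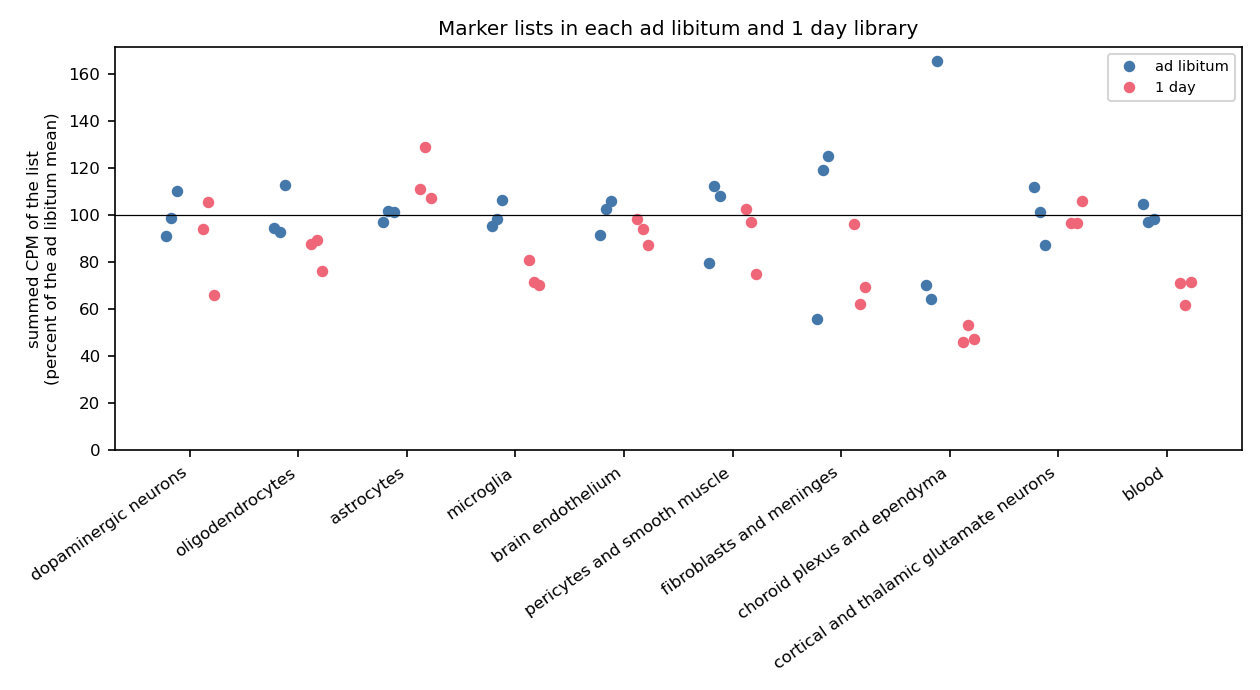
Summed CPM of 10 marker lists in each ad libitum and 1 day library (vertical axis, percent of the ad libitum mean, from 0); points are libraries. Oligodendrocyte, microglia, blood and choroid plexus sums are lower in every fasted library than in every control. The choroid plexus sum, at 274 to 317 CPM against 382 to 979 CPM, is highest in ad libitum replicate 3. It leans on Enpp2, which was at 213 to 273 CPM after 1 day and 316 to 565 CPM in controls. The median log2 fold change of the choroid plexus list was -0.07, and 0.055 without ad libitum replicate 3. Astrocyte sums are higher, at 8677 to 10435 CPM against 7858 to 8225 CPM. The astrocyte sum leans on 1 gene, Glul, which was at 2516 to 3822 CPM after 1 day and 1862 to 2193 CPM in controls.

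Further genes whose groups did not overlap were among the next by p and did not pass. On the higher side, Adipor2, a receptor for adiponectin, was at 73.9, 78.4 and 95.6 CPM in controls and 157, 165 and 131 CPM after 1 day (log2 fold change 0.87, edgeR adjusted p = 0.0609). Rbm3, a cold-inducible RNA-binding protein, was at 42.4, 42.4 and 52.0 CPM and then 88.7, 136 and 93.3 CPM (1.22, adjusted p = 0.0634). Galnt15, which starts mucin-type sugar chains, had a log2 fold change of 1.03, Phyhd1 of 0.90, Fam83d of 1.83, the tektin Tekt4 of 1.87 and Kirrel2, an adhesion protein related to nephrin, of 1.31, with edgeR adjusted p between 0.0609 and 0.0879.

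On the lower side, Unc5b, a netrin receptor found on vessels, was at 113, 113 and 114 CPM in controls and 64.4, 61.1 and 54.0 CPM after 1 day (log2 fold change -0.92, edgeR adjusted p = 0.0609). The 3 controls were almost equal and the fasted libraries were far below them. S100a16, a calcium-binding protein, was at 53.1, 59.5 and 56.5 CPM and then 32.4, 33.1 and 28.5 CPM (-0.85, adjusted p = 0.0609). Podxl, a sialomucin on the vessel surface, was at 51.6, 65.2 and 56.2 CPM and then 32.2, 38.5 and 28.4 CPM (-0.80, adjusted p = 0.102). Fgfrl1, a decoy fibroblast growth factor receptor, had a log2 fold change of -0.94, the microtubule protein Eml1 of -0.84, the motor Myo1d of -0.85, Frmd8 of -0.94, B3gnt9 of -0.73, Osbpl7 of -0.57 and Tmem98 of -0.92, with adjusted p between 0.0896 and 0.114.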

How the data were processed

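RNA from substantia nigra lysate was sequenced as polyA RNA with a directional kit, per the labels' protocols. The authors deposited 1 table of estimated counts per gene, in whole numbers and with no scaling for depth. The submitters' processing notes name Salmon, DESeq2 1.40.2 and the builds GRCm39 and mm39. Neither the annotation release nor the row filter is stated there. The table has 20591 rows with a lowest row mean of 9.89 counts, so weaker genes were not analysed here. Salmon divides reads between similar transcripts, so counts of close copies are uncertain.

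The main test was edgeR 4.0.16 (R 4.3.3) on all 9 libraries with 3 groups, TMM scaling and filterByExpr (minimum count 10, minimum total 15), which removed 56 rows and left 20535 genes. Levels are CPM on the TMM scale. Standard errors were derived from the F statistics, and intervals are 95% t intervals, not adjusted for the number of genes. DESeq2 1.42.0, limma 3.58.1 (voom with sample quality weights), other filters and scalings, a replicate block and fits without single libraries were alternatives.

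Named genes are those past the test, the 12 next higher and 12 next lower by p among named genes with a mean log2 CPM of 0 or more and groups that do not overlap, up to 4 members of smallest p per list and a fixed set; some of these are not reported here and were not replaced. The 37 gene lists and the samples compared were chosen with earlier results of these data known, so lists were counted and not tested. Their 752 genes and the promoter windows were matched by symbol. On simulated data for this comparison (20480 genes, 200 changed) edgeR found 6% of the genes set to a 1.5-fold change, 47.8% at 2-fold and 98.5% at 4-fold, and it called 6 unchanged genes. Deviations of same-numbered libraries from their group means correlated at -0.225, -0.13 and -0.206 between the ad libitum and 1 day groups. Between 1 day and 1 week they correlated at 0.169, 0.459 and 0.078, and between ad libitum and 1 week at -0.072, -0.083 and 0.214. With 3 libraries a group, some of which stood apart, these values cannot decide whether the numbers pair samples. No 2 libraries of a group agreed within sampling noise.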

Additional observations from a re-analysis of the deposited data

How the results depend on the processing

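The count of genes after 1 day, 11 higher and 1 lower, was 86 higher and 101 lower by DESeq2, 45 and 48 by limma's voom with quality weights, 25 and 25 without both libraries that stood apart, and 16 and 10 in the 6 libraries of the contrast alone. All 12 genes also passed by DESeq2, by voom, with RLE size factors, without a filter and in the 6 libraries alone, and 10 passed with the 1 CPM filter, which left out Fbxw23 and lost Ddit4. Leaving out single libraries gave 0 to 16 higher and 0 to 8 lower. With the replicate number as a block, 2 genes were higher and 0 lower, Sgk1 and Arl4d. Whether the numbers pair the samples is not known. Between 1 week and 1 day, DESeq2 called 1 of the 12 genes where edgeR called 0. None of the 12 genes changed sign under any alternative run. Estimates near 0 did, among them those of Nr3c1 (0.07 without fasted replicate 1) and Cpt1a (0.006 by DESeq2), as did list medians: that of ketone use was -0.003 and 0.008 by DESeq2 and with RLE factors, that of the clock 0.01 and -0.004 with the replicate block, and that of GABA genes -0.01 and 0.007 by DESeq2 and 0.062 without fasted replicate 1. With 3 libraries a group, changes of 1.5-fold were mostly missed on simulated data, and Fbxw23 is near the lowest level that could be tested. The cause of the differences between settings was not tested.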

Other observations

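Ribosomal RNA left in these polyA libraries differed widely between libraries, and the genes in this paragraph were named after their values were seen. Rn18s-rs5, a copy of 18S ribosomal sequence, was at 12368, 97202 and 2328 CPM in the ad libitum libraries and 3002, 195 and 627 CPM after 1 day (edgeR adjusted p = 0.481). Lars2, which encodes a mitochondrial leucyl-tRNA synthetase, had the same order of libraries, at 1561, 11414 and 328 CPM and then 372, 34.9 and 126 CPM (adjusted p = 0.467). The mitochondrial ribosomal gene mt-Rnr1 was also highest in ad libitum replicate 2, at 3104 CPM against 336 to 805 CPM in the other 5 libraries. The n-R5s100 gene of 5S ribosomal RNA was at 3.05 to 17.7 CPM in controls and 0 to 0.270 CPM after 1 day (adjusted p = 0.182).

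Some transcripts marked single libraries, again named after their values were seen. Slc6a4, the serotonin transporter, reached 8.32 CPM in ad libitum replicate 3 and no more than 0.129 CPM in the other 5 libraries, and Fat2, a protocadherin known from cerebellar granule cells, was at 10.9 CPM there and at no more than 1.39 CPM elsewhere among the 6. In fasted replicate 2, the library that stood apart, the pseudogene Rps7-ps3 was at 20.7 CPM against 0 to 0.270 CPM in the other 5, and Ap2m1-ps was at 18.6 CPM against 0.138 to 0.955 CPM. Bc1, a noncoding RNA of neuronal dendrites, was at 1235 CPM in that library, 583 and 574 CPM in the other fasted libraries and 364 to 489 CPM in controls (edgeR adjusted p = 0.484). Mt2, a metallothionein on the glucocorticoid list, was at 127, 25.1 and 128 CPM in fasted replicates 1, 2 and 3 and 78.5 to 118 CPM in controls (adjusted p = 0.977).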
